A study of Homo sapiens with 8 samples.

Results

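The genes described here carry newly made enzymes to the lysosome, and they were followed in small and large cells of H1, a human embryonic stem cell line. They are the mannose 6-phosphate receptors IGF2R and M6PR, the receptor SORT1, the enzymes GNPTAB, GNPTG and NAGPA that build the mannose 6-phosphate tag, the adaptors GGA1, GGA2 and GGA3, and the retromer subunit VPS35. Members were the probe sets annotated to one of these 10 gene symbols and to no other gene. This gave 29 of the 54613 probe sets that were not controls, for 9 of the 10 genes. SORT1 was not analysed here. The set was chosen by the difference between small and large cells, since the leading probe set of IGF2R was among those furthest below the large cells. Their values in that comparison are therefore given as a description.

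Small and large cells came from the same cell line, H1, cultured on a layer of irradiated mouse feeder cells, with no treatment or genetic change named in the labels. A flow cytometer separated them by forward and side scatter, which vary with cell size and granularity. Each fraction was sorted 4 times, which the submitters call independent biological repeats, and every sort was measured on its own 1-colour Affymetrix array. The arrays held 4 small and 4 large samples of a single cell line, and no label says if sorts of the same number came from the same culture, so p-values measure the spread between these sorts.

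Lysosomal hydrolases are made in the endoplasmic reticulum and receive a phosphate-bearing tag in the Golgi. GNPTAB encodes the catalytic and GNPTG the accessory subunit of the phosphotransferase that starts this tag, and NAGPA encodes the enzyme that uncovers it. The mannose 6-phosphate receptors bind the tag in the trans-Golgi network, GGA proteins and the clathrin adaptor AP-1 load the receptors into clathrin carriers, and the receptors give up their cargo in endosomes. Retromer, of which VPS35 is the core, returns sorting receptors to the Golgi. IGF2R is the large, cation-independent receptor and also binds the growth factor IGF2 at the cell surface, delivering it for breakdown. M6PR is the small, cation-dependent receptor.

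The start regions of the 4 genes below are shown because both receptors had lower means and VPS35 a higher mean in small cells, and because the letters CACGTG recur in some of them. These letters are the core of the binding motif of TFEB and related factors, known as regulators of lysosomal genes, and are shared by many other helix-loop-helix factors. The sequences are RefSeq's (GRCh38.p14) and run from 250 bases before to 50 bases after an annotated transcription start, with CACGTG in capitals.
IGF2R (chr6:159968832-159969131, plus strand): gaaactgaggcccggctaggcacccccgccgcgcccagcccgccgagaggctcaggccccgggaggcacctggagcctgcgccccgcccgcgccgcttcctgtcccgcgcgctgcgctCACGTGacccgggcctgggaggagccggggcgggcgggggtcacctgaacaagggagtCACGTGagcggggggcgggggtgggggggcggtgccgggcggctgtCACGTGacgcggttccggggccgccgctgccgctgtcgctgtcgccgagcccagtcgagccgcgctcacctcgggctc
M6PR (chr12:8949361-8949660, minus strand): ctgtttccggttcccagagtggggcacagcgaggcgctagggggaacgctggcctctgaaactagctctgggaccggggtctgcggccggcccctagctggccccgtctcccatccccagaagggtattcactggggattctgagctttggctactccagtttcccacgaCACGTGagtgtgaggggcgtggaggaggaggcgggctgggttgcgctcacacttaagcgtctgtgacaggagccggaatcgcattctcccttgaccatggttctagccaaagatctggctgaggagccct
GNPTG (chr16:1351681-1351980, plus strand): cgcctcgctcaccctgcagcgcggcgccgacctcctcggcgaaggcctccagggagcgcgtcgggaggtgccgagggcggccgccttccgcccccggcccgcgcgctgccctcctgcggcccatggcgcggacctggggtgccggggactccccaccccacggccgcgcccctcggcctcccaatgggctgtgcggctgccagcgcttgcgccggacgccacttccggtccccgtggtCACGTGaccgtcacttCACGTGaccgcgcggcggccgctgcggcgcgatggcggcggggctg
VPS35 (chr16:46689129-46689428, minus strand): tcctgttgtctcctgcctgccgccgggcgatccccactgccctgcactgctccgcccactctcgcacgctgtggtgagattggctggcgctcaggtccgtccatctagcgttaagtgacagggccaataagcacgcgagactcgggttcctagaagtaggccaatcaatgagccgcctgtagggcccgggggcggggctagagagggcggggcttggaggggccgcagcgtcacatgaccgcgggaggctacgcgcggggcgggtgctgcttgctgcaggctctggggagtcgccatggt
The IGF2R window held 3 copies of CACGTG, which begin at -132, -74 and -28 relative to the start. Of 35116 RefSeq windows of this length, 2548 (7.26%) held at least 1 copy and 33 (0.094%) held at least 3. CACGTG reads the same on both strands. The longer TCACGTGA, which contains it and also reads the same on both strands, was present in 344 of all windows (0.98%). All 3 copies in IGF2R, both copies in GNPTG and the single copy in NAGPA had this longer form. M6PR had 1 copy of CACGTG, without it, at the start shown and 0 at its other listed start. The windows of GNPTAB, GGA1, GGA3 and VPS35 had 0 copies, and 8 of the 9 genes had a window in the table. Of the genes with a copy, IGF2R and M6PR had lower means in small cells, NAGPA a higher mean (0.31 ± 0.24 SE), and GNPTG differed by -0.07 ± 0.20 SE. Of those without a copy, GNPTAB and GGA3 had lower means and GGA1 and VPS35 higher means, on their leading probe sets. A match describes these letters only, no binding was measured, and a link between the letters and the differences was not tested.

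All levels below are log2 intensities after a pseudocount of 1.81 and quantile normalization, which puts the arrays on a common distribution. A level can be compared between arrays for the same probe set but not between probe sets. Every array received the same amount of labelled RNA, so a level is relative to the RNA measured, and fewer cells of a type cannot be told apart from less of a transcript per cell. Before normalization the upper quartile of the intensities was 45.5 to 104 units on small and 42.0 to 106 units on large arrays (exact two-sided permutation p = 0.714 on the log2 scale, with 0.0286 the smallest p that 4 against 4 allows). With 4 arrays a group, their number sets the precision. The 3 prime to 5 prime log2 difference of the GAPDH and ACTB controls, a sign of RNA integrity, ran from 1.94 to 2.66 on small arrays. It was 2.91 on large array 1 and between 1.83 and 1.89 on large arrays 2 to 4 (exact two-sided permutation p = 0.4 for small against large). Of 8 pluripotent stem cell markers 7 were tested, among them SOX2 and L1TD1, and their summed level was 13.89 to 14.07 in small and 13.96 to 14.16 in large cells. A summed level is the log2 of the added linear levels, in which the brightest probe sets weigh most. All 5 neural markers had higher means in small cells, although 0 of them passed the test, and their summed level was 7.26 to 7.37 in small and 6.56 to 7.04 in large cells. They were dim: PAX6 was at 5.63 on large array 1, but at 3.22, 2.74 and 3.24 on large arrays 2 to 4. The mean had to exceed 3.62 for a probe set to be tested. MAP2 differed by only 0.02 ± 0.38 SE. The summed level of 8 fibroblast markers was 10.16 to 11.01 in small and 10.54 to 11.50 in large cells. Of these 8, 6 had lower and 2 higher means in small cells, and 0 passed. The 2 with the smallest p were FBLN1, at -0.76 ± 0.21 SE without overlap and lower on all 5 of its probe sets, and COL1A1. COL1A1 was at -0.59 ± 0.28 SE and lower on 3 of its 4 probe sets. The rest ran from -0.34 (THY1) to 0.39 (POSTN), and the median of the list was -0.09. The summed level of 4 tested endoderm and mesoderm markers was 6.75 to 8.11 in small and 6.74 to 8.12 in large cells. Of these, 3 had higher means and 1 a lower mean in small cells. The part of the neural and fibroblast markers in the results below was not tested.

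Both mannose 6-phosphate receptors had lower means in small cells, and after normalization neither receptor's small values overlapped its large values. The leading probe set of IGF2R, the one with the highest mean (201393_s_at), was at 6.65, 6.72, 6.99 and 6.78 on small arrays 1 to 4, against 7.59, 7.95, 9.19 and 8.30 on large arrays 1 to 4. The small sorts lay within a narrow band and the large sorts were spread widely, with large array 3 at the top and large array 1 closest to the small sorts. Small array 3 and large array 3, the highest of their groups for IGF2R, were also the arrays with the highest upper quartile before normalization, and the part of that brightness in the result was not tested. The 3 prime to 5 prime control difference was lowest on large array 3 (1.83) and highest on large array 1 (2.91) among large arrays. Among small arrays it was highest on array 3 (2.66). Its part in the order of the arrays was not tested, and a fit that includes it is given below. The means were 6.79 ± 0.15 in small and 8.26 ± 0.69 in large cells (SD, n = 4 each), a log2 difference of -1.47 ± 0.28 SE, or 2.77-fold lower. On the deposited scale the same probe set read 90.9, 72.1, 216 and 82.8 units in small sorts and 117, 216, 960 and 388 units in large sorts. Without normalization small array 3 therefore exceeded large array 1 and reached the level of large array 2.

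The other tested probe set of IGF2R (201392_s_at) was dimmer and showed a smaller difference. It was at 4.63, 4.75, 4.99 and 5.28 in small cells, against 5.73, 5.82, 5.85 and 5.40 in large cells. Small and large values again did not overlap, although on the deposited scale small array 3 (42.4 units) exceeded large array 1 (34.2 units), and the log2 difference was -0.79 ± 0.24 SE. Here the large sorts did not spread, and large array 3 did not stand above the rest. A further IGF2R probe set (1569052_at) was too dim to be tested. It read 1.48 to 3.14 in small and 2.78 to 4.15 in large cells, with overlap.

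M6PR, the small receptor, was measured on 1 probe set of its own. Its levels were 7.83, 7.68, 7.73 and 7.44 on small arrays 1 to 4, against 8.57, 8.54, 8.51 and 7.92 on large arrays 1 to 4. Large arrays 1 to 3 were nearly equal, and large array 4 lay just above the highest small value. The means were 7.67 ± 0.17 in small and 8.38 ± 0.31 in large cells (SD, n = 4 each). The log2 difference was -0.72 ± 0.18 SE, or 1.64-fold lower, and it did not pass the threshold of limma over all probe sets. Its 95% interval ran from -1.11 to -0.33. On the deposited scale M6PR read 213, 142, 367 and 130.0 units in small sorts and 231, 325, 616 and 297 units in large sorts, so that small array 3 exceeded large arrays 1, 2 and 4.

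**Figure D1:**
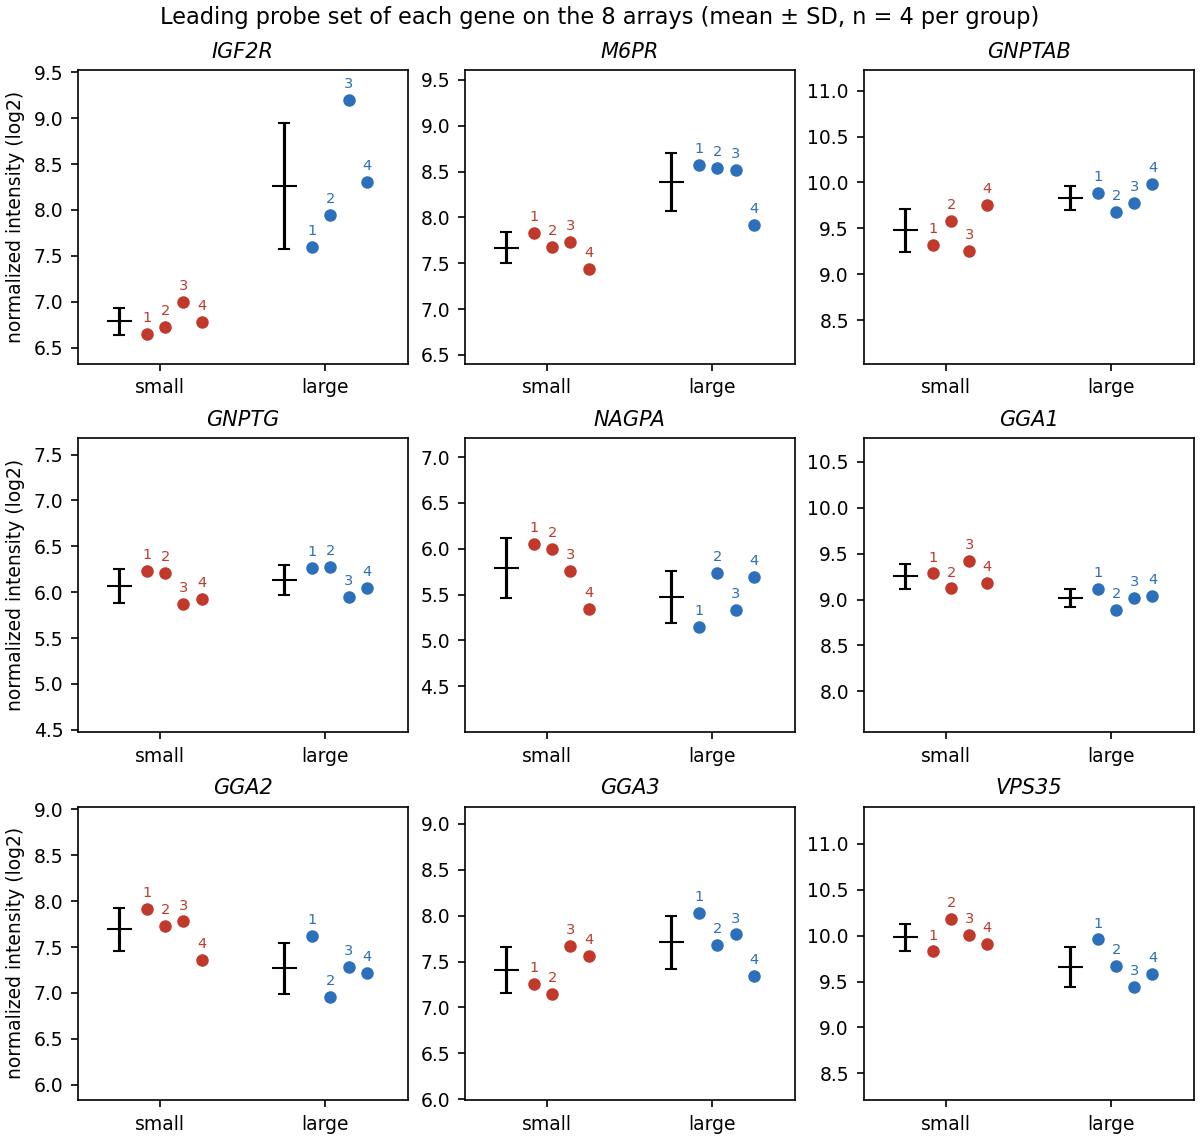
Normalized log2 intensity of the leading probe set of each of the 9 genes on small arrays (red) and large arrays (blue), with the replicate number above each point and the mean ± SD (n = 4) as a black bar; every panel spans the same log2 range. IGF2R and M6PR are lower on all small arrays than on any large array, GGA1 is higher on all small arrays, and the small and large points of the other 6 genes overlap.

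For all 3 genes of the phosphate tag small and large values overlapped, and none was called. For GNPTAB the leading probe set (212959_s_at) was at 9.32, 9.58, 9.26 and 9.75 in small cells, against 9.89, 9.68, 9.78 and 9.99 in large cells. The small sorts tended lower but small array 4 exceeded large array 2, and the log2 difference was -0.36 ± 0.14 SE, with a 95% interval from -0.66 to -0.05. Its other probe sets were dimmer and did not point the same way, at 0.01 ± 0.29 (240106_at) and 0.40 ± 0.32 (220398_at). GNPTG, the accessory subunit, was at 6.23, 6.21, 5.88 and 5.93 in small cells, against 6.26, 6.28, 5.95 and 6.05 in large cells. Its values overlapped almost entirely, and the difference was -0.07 ± 0.20 SE with a 95% interval from -0.49 to 0.35. NAGPA, the uncovering enzyme, was at 6.06, 6.00, 5.75 and 5.35 in small cells, against 5.15, 5.73, 5.33 and 5.69 in large cells. The groups overlapped, and the difference was 0.31 ± 0.24 SE with an interval from -0.20 to 0.83.

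The GGA adaptors bind the receptor tails, and none of their 15 tested probe sets was called. GGA1 was at 9.28, 9.12, 9.43 and 9.18 on small arrays 1 to 4, against 9.12, 8.89, 9.01 and 9.04 on large arrays 1 to 4 (50277_at). Every small value was above every large value, although the 2 groups nearly touched, and the log2 difference was 0.24 ± 0.13 SE. All 5 GGA1 probe sets had a positive difference, from 0.04 to 1.05, the last on the dimmest of them. GGA2 had 8 tested probe sets, of which 4 were higher and 4 lower on average, from -0.24 to 0.43. Its leading probe set (208913_at) was at 7.91, 7.73, 7.78 and 7.36 in small cells, against 7.62, 6.95, 7.29 and 7.21 in large cells, with small array 4 inside the large range. The difference was 0.43 ± 0.19 SE, with a 95% interval from 0.02 to 0.84. GGA3 was at 7.25, 7.15, 7.67 and 7.57 in small cells, against 8.03, 7.68, 7.79 and 7.34 in large cells (209411_s_at), and its difference was -0.30 ± 0.19 SE. The other GGA3 probe set was at 0.11 ± 0.30.

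VPS35, the core of retromer, had a higher mean in small cells on all 4 of its tested probe sets, from 0.15 to 0.55 on the log2 scale. The leading one (217727_x_at) was at 9.83 to 10.18 in small cells, against 9.96, 9.67, 9.44 and 9.58 on large arrays 1 to 4. Large array 1 lay within the small range, and the other large arrays lay below it. The log2 difference was 0.32 ± 0.14 SE with a 95% interval from 0.02 to 0.63. A less bright probe set (233864_s_at) did not overlap between the groups, at 9.13, 9.59, 9.33 and 9.15 in small cells, against 8.86, 8.87, 8.58 and 8.69 in large cells. Its difference was 0.55 ± 0.15 SE. The groups overlapped on 222388_s_at (0.15 ± 0.15 SE) and on the dimmer 222387_s_at (0.55 ± 0.43 SE), and the 95% intervals of both included 0. The fifth VPS35 probe set (1561146_at) was too dim to be tested.

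**Figure D2:**
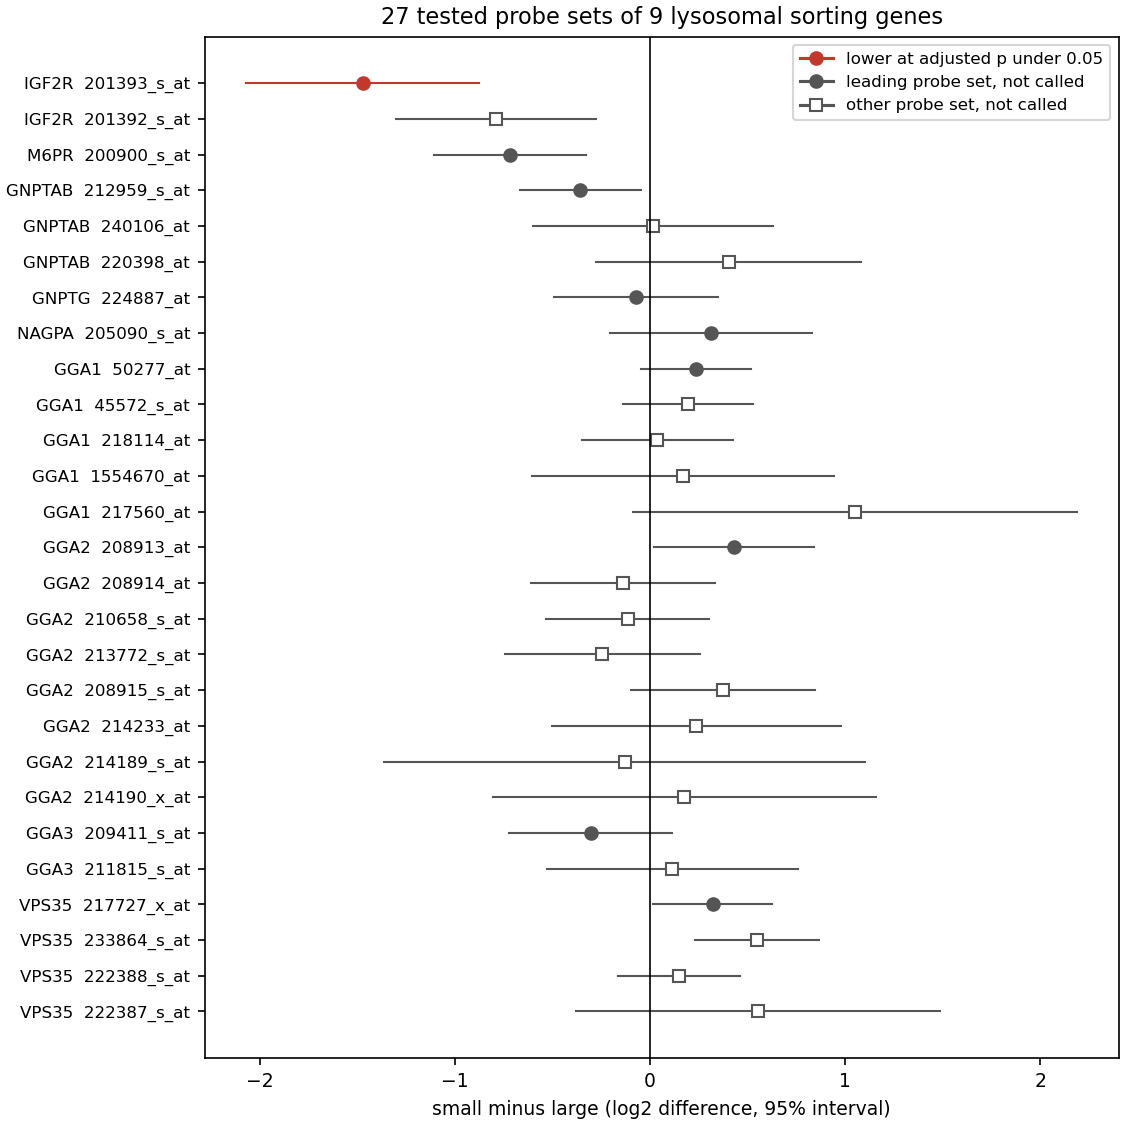
Log2 difference, small minus large, of the 27 tested probe sets with its 95% interval (x axis), ordered by gene and brightness; filled circles are leading probe sets, open squares the others, and red marks an adjusted p under 0.05. The 3 receptor probe sets lie left of 0 with intervals that exclude it. The 4 VPS35 probe sets lie right of it, but the intervals of 222388_s_at (-0.16 to 0.46) and 222387_s_at (-0.38 to 1.49) include 0.

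Of the 29 probe sets, 27 passed the filter on dim signals, and limma called 1 of these, the leading IGF2R probe set, lower and 0 higher. Among all 32768 tested probe sets 1.50% were called, 1.30% lower and 0.198% higher, and because the choice of genes used this comparison nothing is read from the members' count. Small values lay wholly below large values for 3 of the 27 probe sets, all of the receptors, and wholly above for 3, of GGA1, GGA2 and VPS35. Over all probe sets 5.46% lay wholly below and 3.89% wholly above. The median difference of the 27 probe sets was 0.15, beside 0.02 over all tested probe sets.

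The ratio of genes within an array does not change when a whole array is multiplied by a factor. The ratios with IGF2R reuse the values by which the set was chosen, so they are not separate support. On the deposited intensities, the log2 ratio of IGF2R to VPS35 was -3.30, -3.59, -3.01 and -3.11 in small cells, against -2.36, -1.68, -0.23 and -1.24 in large cells. The mean ratio was 3.68-fold lower in small cells, and no small array reached the lowest large array. VPS35 had a higher mean in small cells, which makes this ratio differ by more than IGF2R alone. On large arrays the ratio rose in the order of their upper quartile, which was 42.0, 60.8, 106 and 79.0 units on large arrays 1 to 4. On small arrays the lowest and highest ratio also lay on the arrays with the lowest and highest upper quartile, arrays 2 and 3. Small arrays 1 and 4, between them, were in the opposite order. The part of array brightness in this ratio was not tested. Over GNPTAB, which had a lower mean in small cells, IGF2R was at -2.75 ± 0.30 in small and -1.54 ± 0.71 in large cells (SD, n = 4 each), 2.31-fold lower and without overlap. For M6PR over VPS35 the ratio was -2.36 ± 0.24 in small and -1.24 ± 0.33 in large cells (SD, n = 4 each), a 2.17-fold lower ratio. IGF2R over GNPTG was 2.55-fold lower in small cells, with 0.74 ± 0.37 in small and 2.09 ± 0.89 in large cells. The ratio of IGF2R to M6PR was 1.69-fold lower on average but overlapped between the groups, at -1.21 to -0.64 in small and -0.97 to 0.64 in large cells.

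The spread of sorts around their own group mean does not depend on the difference between small and large cells, so it was examined apart from it. Within groups, IGF2R and M6PR had Pearson r = -0.10 over the 8 arrays, against r = 0.71 when the group means were kept. IGF2R and VPS35 had r = -0.71 within groups, and IGF2R and GNPTG r = -0.72. Over all 36 pairs of the 9 genes the r within groups ran from -0.77 to 0.65, with a median of -0.02. These are descriptions over 8 arrays that share their normalization. They use leading probe sets only, and that of IGF2R spread mostly among the large sorts (SD 0.69, against 0.15 in small). Its other tested probe set (201392_s_at) did not share this order of large arrays, with large array 4 lowest at 5.40. The part of the probe set, of array brightness or of RNA integrity in these r was not tested.

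The genes whose levels over the 8 arrays were most like those of IGF2R's leading probe set were CRIM1, PSAP, GOLIM4, TMEM209 and INSR, with Pearson r between 0.97 and 0.98. PSAP encodes the precursor of the saposins, cofactors of lysosomal lipid breakdown, GOLIM4 a Golgi membrane protein, TMEM209 a transmembrane protein, CRIM1 a membrane protein that binds growth factors and INSR the insulin receptor. Within groups their r with IGF2R was between 0.90 and 0.92, and in all 5, as in IGF2R, large array 3 was the highest and large array 1 the lowest large array. The 5 genes were picked for their r over these same arrays, so a shared order of arrays follows from the choice. Large arrays 3 and 1 also had the highest and lowest upper quartile of the large arrays before normalization. The 3 prime to 5 prime control difference had its extremes on the same arrays, at 1.83 on large array 3 and 2.91 on large array 1. Large arrays 2 to 4 were close together in it, between 1.83 and 1.89. The part of brightness or of RNA integrity in the likeness was not tested. PSAP was at 9.03, 9.21, 9.68 and 9.47 in small cells, against 10.25, 10.42, 11.20 and 10.62 in large cells. M6PR ranked 1027 and VPS35 14398 of 14725 genes in likeness to IGF2R.

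**Figure D3:**
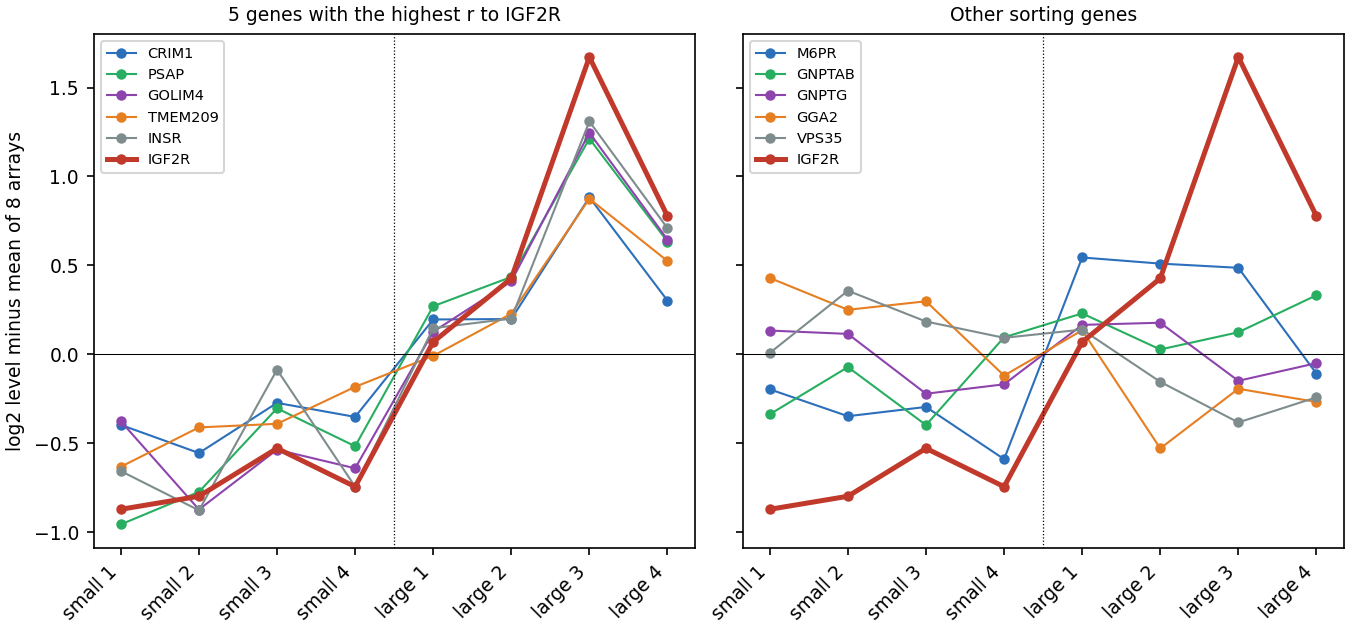
Log2 level of each gene's leading probe set minus its mean over the 8 arrays (y axis) on small arrays 1 to 4 and large arrays 1 to 4 (x axis), with IGF2R as the thick red line; lines only join the values of a gene. The 5 most alike genes (left), which were picked for their likeness to IGF2R, share its peak on large array 3. M6PR, GNPTAB, GNPTG, GGA2 and VPS35 (right), which were not picked this way, do not.

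Beside these genes, 112 others of enzyme transport, cargo and IGF signalling were listed, and 92 had a tested probe set of their own. Of these, 13 were lower in small cells at an adjusted p under 0.05 (limma, adjusted over all 14726 genes) and 0 higher. The lower genes were 14.1% of those tested, while of all tested genes 1.99% were called, 1.69% lower and 0.299% higher. The median difference of the 92 was -0.16, beside 0.05 over all genes. Of the 92, 61 had a lower and 31 a higher mean in small cells, called or not. Over all 14726 genes, 6483 had a lower and 8243 a higher mean, which is the background for the list counts below. The called genes were 8 cargo proteins, 4 receptors or receptor-like proteins and 1 export lectin, and none was of the retromer, AP-1 or tether lists. All of these lists were made with earlier results of these data known, and the lysosomal genes were already known to be lower in these samples. The count and share of called genes are therefore not independent evidence. The count depended on single arrays: it was 3 without small array 1 or 2, 8 without small array 3 and 4 without large array 3 or 4. It was 0 on unscaled intensities, after centring on medians and with a single prior variance, where 13, 24 and 33 of the 92 had an unadjusted p under 0.05 in limma. It was 7 with the 3 prime to 5 prime control difference in the fit or without _x_at and _s_at probe sets. With array weights it was 22.

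Soluble lysosomal proteins, the cargo that these receptors carry, made up most of the called genes. Of 36 listed, 30 were tested, 28 had a lower mean in small cells, and 8 passed the test, all lower, with a list median of -0.49. PSAP had the largest called difference, at -1.28 ± 0.20 SE (limma, adjusted p = 0.00754). CTSC, the protease cathepsin C, was at 10.09, 10.23, 9.98 and 10.38 in small cells, against 11.14, 11.34, 10.90 and 11.08 in large cells. Its small and large values were well apart, with a difference of -0.95 ± 0.13 SE (limma, adjusted p = 0.00651). TPP1, a tripeptidyl peptidase, was at 6.78, 6.94, 7.06 and 7.33 in small cells, against 7.61, 8.16, 8.25 and 7.94 in large cells (-0.96 ± 0.19 SE, limma, adjusted p = 0.0236). CTSD, the protease cathepsin D, was dimmer, at 4.43 to 4.85 in small and 5.22 to 6.29 in large cells, and passed narrowly (-1.11 ± 0.27 SE, limma, adjusted p = 0.0495). Both probe sets of PSAP, all 4 of CTSC and 3 of 4 of TPP1 had lower means. In the fit over all probe sets, 1 probe set each of PSAP, CTSC and TPP1 was called, and 0 of CTSD.

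Among other receptors that cycle between the Golgi, endosomes and the surface, 2 passed. CPD, a carboxypeptidase that cycles through the trans-Golgi network, was at 5.93 to 6.50 in small cells, against 7.24 to 8.07 in large cells (-1.42 ± 0.23 SE, limma, adjusted p = 0.00882). The transferrin receptor TFRC differed by -0.74 ± 0.16 SE (limma, adjusted p = 0.0315). All 7 tested members of this list had a lower mean, 2 passed, and the median was -0.52. Among 3 tested sorting receptors, SORL1, a relative of sortilin, was at 8.28, 8.45, 7.97 and 8.99 in small cells, against 9.52, 9.08, 9.50 and 9.40 in large cells. All of its 3 probe sets were lower, 2 of them called in the fit over all probe sets. The difference of the leading one was -0.95 ± 0.20 SE (limma, adjusted p = 0.0286). In the endoplasmic reticulum, LMAN1, a lectin that exports glycoproteins, was lower by -0.81 ± 0.15 SE (limma, adjusted p = 0.0207), 1 of 4 genes of enzyme export to pass, all 4 of which had lower means.

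Of the coat and retrieval genes none passed the test, at limma's adjusted p under 0.05 over all genes. Of 11 retromer and sorting nexin genes, 10 had a higher mean in small cells and 0 passed, with a median of 0.07, near that of all genes. The sorting nexins SNX2 and SNX27 had the smallest p-values, at 0.37 ± 0.22 and 0.22 ± 0.17 SE. Of 6 genes of late endosome return and the Golgi tether GARP, all had a higher mean and 0 passed, with RAB9A, a small GTPase of receptor return, at 0.49 ± 0.18 SE and the tether subunit VPS53 at 0.31 ± 0.25 SE. Of 14 AP-1 and clathrin coat genes 9 were lower and 5 higher on average, and 0 passed. Clathrin light chain CLTA was at 10.98, 10.86, 10.92 and 10.78 in small cells, against 10.64, 10.43, 10.37 and 10.19 in large cells, without overlap (0.48 ± 0.12 SE, limma, adjusted p = 0.0611). AP1G2, an adaptor subunit, was at -0.65 ± 0.22 SE, and its groups overlapped.

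Of 14 tested genes of the IGF axis and of IGF2R's ligands, 1 passed. INSR, the insulin receptor, was at 6.57, 6.35, 7.14 and 6.48 in small cells, against 7.37, 7.42, 8.53 and 7.93 in large cells (-1.18 ± 0.26 SE, limma, adjusted p = 0.0346), lower on 3 of its 4 probe sets. In the fit over all probe sets, 1 of the 4 INSR probe sets was called. The list was split, with 8 lower and 6 higher means and a median of -0.10. IGF2 itself was not analysed here. Of the factors related to TFEB, MITF was at 0.38 ± 0.33 SE and TFE3 at 0.00 ± 0.19 SE, and neither passed. TFEB itself and TFEC were not among the tested genes. Of the chromosomal neighbours of IGF2R only MAS1 was tested, at -0.53 ± 0.45 SE with wide overlap.

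**Figure D4:**
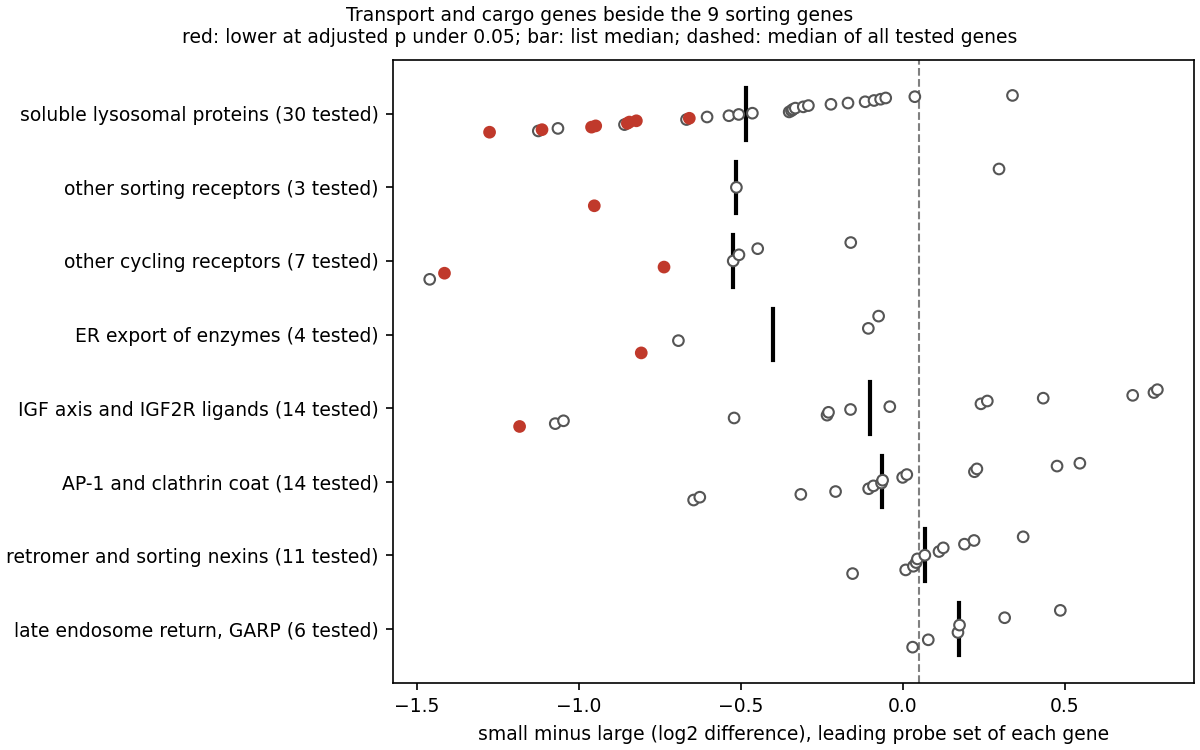
Log2 difference, small minus large, of the leading probe set of each tested gene (x axis) in 8 lists (y axis); filled red points have an adjusted p under 0.05, bars are list medians and the dashed line is the median of all 14726 genes, 0.05. Called points lie only in the cargo, receptor, export and IGF lists, while the retromer and GARP lists lie close to or right of the dashed line.

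The IGF2R difference stayed below 0 in the main setting and in 22 alternatives, from -1.70 to -1.13, while its call was not kept in all of them. The setting without _x_at and _s_at probe sets is not among these, since both tested IGF2R probe sets are _s_at. Adding the 3 prime to 5 prime control difference to the fit gave -1.33 ± 0.27 SE. Without large array 3 it was -1.16 and without large array 1 it was -1.70. The call was lost without small array 1, small array 2 or large array 4. It was also lost on intensities left unscaled, after centring on medians, and with a single prior variance.

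**Figure D5:**
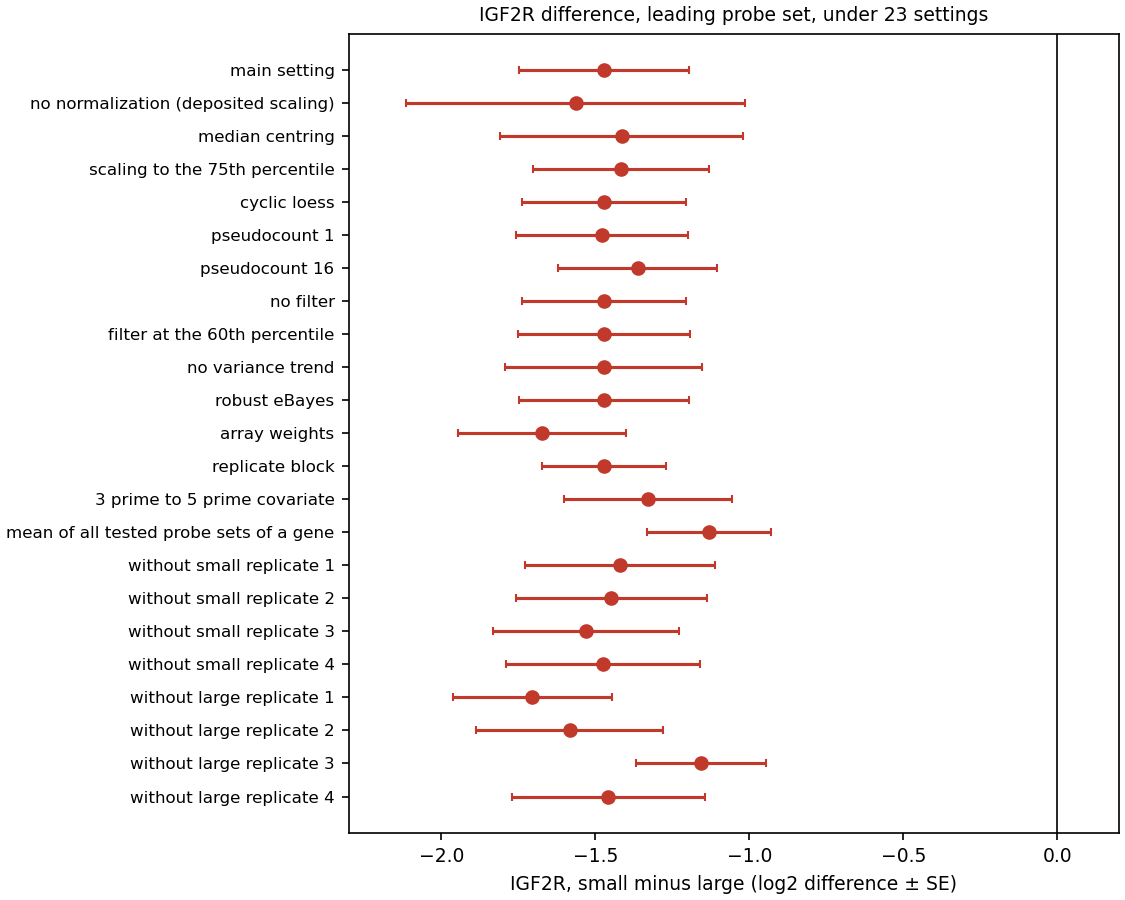
Log2 difference of IGF2R's leading probe set, small minus large, with its SE (x axis) in the main setting and 22 alternatives (y axis), in 1 of which both tested probe sets are averaged. All 23 values lie between -1.70 and -1.13, and the widest error is that on the deposited scaling.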

How the data were processed

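Total RNA of 4 small and 4 large sorts was labelled and hybridised to Affymetrix arrays. Per the series design text, GeneChip Operating Software read the scans and Rosetta Resolver 7.1 took them in. The authors deposited 1 linear intensity per probe set and array, and the background correction and scaling behind it are not given in the sources used here. Groups and replicate numbers come from the sample titles.

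Intensities were moved to log2 after adding 1.81 (their 10th percentile) and quantile normalized, leaving out 62 controls. Probe sets with a mean above the 40th percentile were tested (32768). Symbols come from GEO's platform annotation, updated by gene ID: 41091 probe sets had 1 symbol, 1801 several and 11721 none. Names ending in _x_at or _s_at mark probe sets that may detect more than a single transcript. A gene's leading probe set is its brightest (14726 genes). The test was limma 3.58.1 (R 4.3.3, variance trend, two-sided, Benjamini-Hochberg, threshold 0.05), which was tested on simulated data. The median SE over genes was 0.24.

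The members and lists were chosen with earlier results of these data known. Named genes are all members and, per list, up to 4 called genes with the largest difference or else the 2 with the smallest p, plus the 5 genes most correlated with IGF2R. Beside leaving out each array, 15 alternatives were run. Sorts were not treated as paired, since no label says whether a number marks a shared culture. Same-numbered small and large deviations correlated at 0.10, 0.10, 0.21 and 0.02, and for numbers 1, 2 and 3 this was the best match. These values do not settle whether the sorts were paired, and a fit with the number as a block is given below.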

Additional observations from a re-analysis of the deposited data

Results flagged for a closer look

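In 10 of 112 groups of 4 arrays, 1 array stood apart from its group by Dixon's test at the 95% level (gap over range), where chance gives about 1 in 20. For M6PR large array 4 was lowest, at 7.92 against 8.51 to 8.57 (0.911). A GGA2 probe set (208915_s_at) had small array 2 at 6.42 against 5.83 to 5.88 (0.911), and another (210658_s_at) had large array 3 at 6.42 against 6.08 to 6.11 (0.897). TFRC was highest on large array 4, at 11.36 against 10.88 to 10.90 (0.958), and CTSD lowest on small array 4, at 4.43 against 4.79 to 4.85 (0.866). RAB9A was highest on large array 1 (8.54 against 7.94 to 8.03, 0.852) and VPS53 lowest on small array 3 (5.52 against 6.36 to 6.51, 0.847). CRIM1 was highest on large array 3 (8.05 against 7.37 to 7.47, 0.845). Of the markers, L1TD1 was highest on small array 3 (11.81 against 11.55, 0.985) and SOX17 on large array 2 (5.56 against 4.24 to 4.32, 0.939).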

How the results depend on the processing

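Over the 22 or 23 alternatives run for each gene, the leading probe sets of IGF2R, M6PR, GNPTG, NAGPA, GGA1, GGA2, GGA3 and VPS35 kept their direction. All tested probe sets of IGF2R, M6PR, NAGPA, GGA3 and VPS35 are _x_at or _s_at. These genes could therefore not be checked in the setting without such probe sets, and have 22 alternatives. GNPTAB changed sign without _x_at and _s_at probe sets (0.014) and with the mean of its probe sets (0.021). On unscaled intensities, after centring on medians and with a single prior variance, in that order, limma called 3, 3 and 3 probe sets, 0, 0 and 0 genes (494, 1575 and 2234 at an unadjusted p under 0.05), 0, 0 and 0 member probe sets (2, 5 and 5) and 0, 0 and 0 pathway genes (13, 24 and 33), and IGF2R was at -1.56, -1.42 and -1.47 without a call. Array weights gave 1131 probe sets, 824 genes, 2 member probe sets and 22 pathway genes. With the 3 prime to 5 prime difference in the fit there were 296 probe sets, 155 genes and 7 pathway genes, and leaving out _x_at and _s_at probe sets 190 genes and 7 pathway genes. With 1 array left out, counts ran from 49 to 788 probe sets, 62 to 553 genes, 0 to 1 member probe sets and 3 to 17 pathway genes, and IGF2R from -1.70 to -1.16. With the replicate number as a block, 1205 probe sets, 753 genes, 3 member probe sets and 20 pathway genes were called, M6PR among them (adjusted p = 0.0202 in limma, from 0.0202 to 1.00 over its alternatives). No label says whether the numbers pair the sorts. As a hint from the data only, 3 of the 4 small arrays correlated best with the large array of the same number. The median of all probe sets was -0.09 on unscaled intensities and 0.02 in the main setting. Scaling to the 75th percentile called 148 genes lower and 62 higher, beside 249 and 44 in the main setting. The cause of these changes was not tested. Dim probe sets, such as 1569052_at of IGF2R, could not be assessed.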

Other observations

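Beside IGF2R, 22 tested genes had at least 3 copies of CACGTG in a RefSeq start window. Of these 23 genes 2 were called lower, IGF2R and LAMP1, which encodes an abundant lysosomal membrane protein and was picked out after its values were seen (-0.78 ± 0.13 SE, limma, adjusted p = 0.0113, small and large values not overlapping). The share was 8.7% of 23 genes, 2.5% of 120 genes with 2 copies, 1.72% of 1282 genes with 1 copy and 1.7% of 10351 genes with none. The median differences of these classes were 0.02, 0.02, 0.04 and 0.05, so the classes as a whole lay close to all genes. IGF2R's choice for its difference fixes 1 of the 2 calls. These are descriptions, with no test.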
